A study of Mus musculus with 40 samples.

Results

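Trav9 is a family of variable (V) segments of the mouse T cell receptor alpha locus (Tcra). The segments described here are those of its subgroups 2, 3 and 4, chosen by name: every V row of the receptor tables called Trav9, Trav9d or Trav9n with the number 2, 3 or 4. The rule found 7 of the 111 V rows, namely Trav9-2 and Trav9d-2, Trav9d-3 and Trav9n-3, and Trav9-4, Trav9d-4 and Trav9n-4. For Trav9n-2 and an original Trav9-3, no value was analysed here, and Trav9-1 and Trav9d-1 belong to subgroup 1. The study asked what a binding site for the chromatin-looping protein CTCF at the Tcra enhancer Ea, named EACBE, does in Tcra rearrangement. RNA of thymocytes, taken from the thymus of C57BL/6 mice aged 4 to 8 weeks, was copied from the 5′ end (5′ RACE) and sequenced. There were 2 libraries of EACBE+/+ mice, which carry the site, and 2 of EACBE-/- mice, which lack it, with no other allele or agent named for these animals. Further readouts were Trd receptor tables of the same 2 genotypes and 1 list of Hi-C boundaries per genotype, the latter from the CD3-stimulated thymus of EACBE+/+ and EACBE-/- mice that also lacked Rag1. The tables hold receptor segments alone, so neither the loss of EACBE nor the thymocyte label could be checked against other genes.

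An alpha chain is made when a thymocyte joins 1 V segment to 1 of the joining (Traj) segments, and transcription over the Traj array under the control of Ea opens it for the recombinase. First joins tend to use V segments near the J array and Traj segments at its 5′ end. Later rounds on the same allele replace the join with a V segment farther upstream and a Traj segment farther downstream, so the J partner of a V segment carries information about when it was used. A large part of the V array is duplicated in C57BL/6, and the letters D and N in a segment name mark the duplicated copies of an original segment. The V segment encodes the first and second antigen-contacting loops of the chain, and near-identical copies therefore give near-identical receptors that are told apart by few bases.

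The 7 segments lie on chromosome 14 in order of copy type, with positions from RefSeq on GRCm38.p6 (mm10), where each is annotated as a V segment. The D copies are outermost: Trav9d-2 at chr14:52892186-52892618, Trav9d-3 at chr14:52920678-52921110 and Trav9d-4 at chr14:52983456-52983770, at 1265, 1236 and 1174 kb from Traj58. The N copies follow, Trav9n-3 at chr14:53231668-53232102 and Trav9n-4 at chr14:53294596-53295030, at 925 and 862 kb. The originals are nearest the J array, Trav9-2 at chr14:53591080-53591504 and Trav9-4 at chr14:53676196-53676628, at 566 and 481 kb. When the 130 annotated Trav genes were split in order into distal, central and proximal parts, the 3 D copies fell in the distal, the 2 N copies in the central and the 2 originals in the proximal part. Subgroup and copy type thus vary separately within the family, except that subgroup 3 was measured through D and N copies alone and subgroup 2 through a D copy and an original.

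Depth set what could be seen. The Tcra tables held 10694 and 172388 counts in EACBE+/+ replicates 1 and 2 and 19085 and 163953 in EACBE-/-, so that replicate 2 was 16.1 and 8.59 times deeper. The family had 299 and 6528 counts in EACBE+/+ and 492 and 4623 in EACBE-/-. Every member was listed in all 4 tables and entered the fits, which covered 105 V segments. Separate mice for the 2 replicates are not stated in the labels, so a p-value here speaks only of the spread between libraries. Intervals are 95% Wilson intervals for counting error only, since the sources used here do not state if counts stand for reads or for distinct receptors. How reads were divided among near-identical copies is not given there either, so the value of each single copy is uncertain, and each result below is given for single copies and for the copies of a subgroup summed.

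The family as a whole took 2.80% and 3.79% of Tcra counts in EACBE+/+ replicates 1 and 2 and 2.58% and 2.82% in EACBE-/-. The means were 3.29% ± 0.701 and 2.70% ± 0.171 (SD, n = 2 each), and the groups overlapped. Trav9-4 took the largest share of the 7 segments in each of the 4 libraries, at 0.748% and 0.885% in EACBE+/+ and 0.975% and 0.942% in EACBE-/-. Both EACBE-/- values lay above both EACBE+/+ values, and its mean share ranked 43rd among the 105 segments. Trav9n-3 came next in EACBE-/-, at 0.545% and 0.476%, against 0.458% and 0.695% in EACBE+/+, and its groups overlapped. Trav9n-4 took 0.514% and 0.385% in EACBE+/+ and 0.498% and 0.298% in EACBE-/-, also with overlap. The smallest mean share over the 4 libraries was that of Trav9d-3, with 0.252% and 0.313% in EACBE+/+ and 0.215% and 0.218% in EACBE-/-, and here both EACBE-/- libraries were lower. By genotype, Trav9d-4 had the smallest mean in EACBE+/+ (0.270%) and Trav9-2 in EACBE-/- (0.171%). The median over the 105 segments was 0.645% and 0.702% in EACBE+/+ and 0.644% and 0.580% in EACBE-/-, so the family is built mostly of little-used segments: only 1, 2, 1 and 1 members in the 4 libraries in turn exceeded it.

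**Figure D1:**
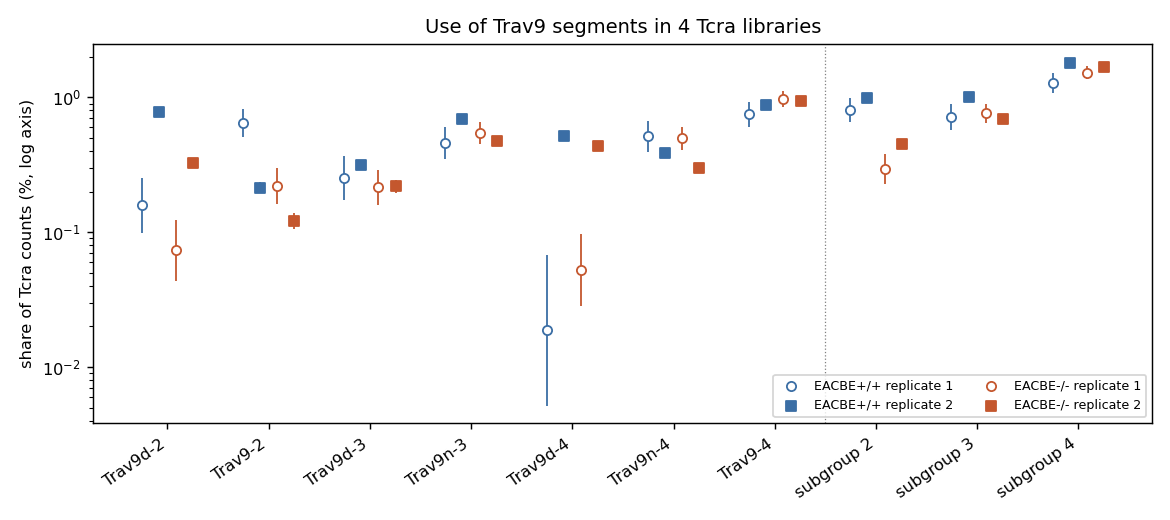
Share of all Tcra counts (percent, log axis) taken by each Trav9 segment and by each subgroup with its copies summed. Each point is 1 library with its 95% Wilson interval, open circles for replicate 1 and filled squares for replicate 2, blue for EACBE+/+ and orange for EACBE-/-; subgroup 2 is lower in both EACBE-/- libraries (0.293% and 0.448%) than in both EACBE+/+ libraries (0.804% and 0.988%), while its single copies overlap between genotypes.

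The remaining 3 segments varied widely between replicates. Trav9d-2 took 0.159% and 0.774% of counts in EACBE+/+ replicates 1 and 2 and 0.0734% and 0.326% in EACBE-/-, being 4.87 and 4.45 times higher in replicate 2. Trav9-2, the original copy of the same subgroup, went the other way, with 0.645% and 0.215% in EACBE+/+ and 0.220% and 0.121% in EACBE-/-, and was 3.01 and 1.81 times higher in replicate 1. Trav9d-4 took 0.0187% (2 counts, interval 0.00513 to 0.0682%) and 0.521% in EACBE+/+ and 0.0524% (10 counts, interval 0.0285 to 0.0964%) and 0.438% in EACBE-/-. Both D copies were thus higher in replicate 2 of both genotypes, and Trav9-2 was higher in EACBE+/+ replicate 1 than in the other 3 libraries. The genotype groups of all 3 segments overlapped.

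In subgroups 2 and 4, the part that the D copy held differed between replicates in both genotypes. Trav9d-2 held 19.8% of the subgroup 2 counts in EACBE+/+ replicate 1 (interval 12.7 to 29.4%) and 25.0% in EACBE-/- replicate 1, but 78.3% (interval 76.3 to 80.2%) and 72.9% in replicate 2. In subgroup 4, Trav9d-4 held 1.46% and 3.44% in replicate 1 of EACBE+/+ and EACBE-/-, and 29.1% and 26.1% in replicate 2. Trav9n-4 held 40.1% and 32.6% in replicate 1 and 21.5% and 17.8% in replicate 2, and Trav9-4 went from 58.4% and 63.9% to 49.4% and 56.1%. In both replicate numbers Trav9-4 held more of subgroup 4 in EACBE-/- and Trav9n-4 less, but across the libraries the genotypes overlapped for both copies. In replicate 2 the intervals of the genotypes were apart for Trav9-4 (47.6 to 51.2% and 54.3 to 57.97%) and for Trav9n-4 (20.1 to 22.99% and 16.4 to 19.2%). Those intervals cover counting error alone, in a single library of each genotype. Subgroup 3 showed no such step: Trav9d-3 held 35.5% and 28.3% in replicate 1 and 31.03% and 31.5% in replicate 2, with overlapping intervals. For the 32 segments of the locus with both a D and an original copy, the D part was taken of D and original counts alone, without N copies. It was higher in replicate 2 in both genotypes for 6, among them Trav9 subgroups 2 and 4, and lower for 23. The part that depth or the assignment of reads to copies had in these splits was not tested.

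**Figure D2:**
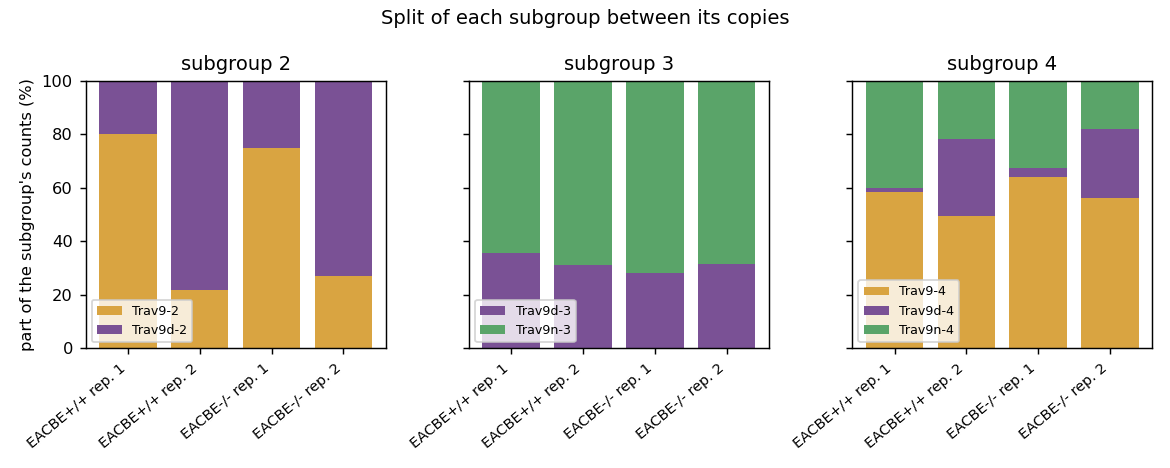
Part of each subgroup's counts (percent) that each copy took, 1 stacked bar per library, with yellow for originals, purple for D copies and green for N copies. Trav9d-2 and Trav9d-4 hold more of their subgroups in replicate 2 of both genotypes, and the subgroup 3 split hardly moves (28.3 to 35.5% for Trav9d-3).

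Summing copies removes that split. Subgroup 2 then took 0.804% and 0.988% of counts in EACBE+/+ replicates 1 and 2 and 0.293% and 0.448% in EACBE-/-. Both EACBE-/- libraries were lower, with means of 0.371% ± 0.109 against 0.896% ± 0.130 (SD, n = 2), 2.42-fold lower, and by replicate number 2.74-fold and 2.21-fold. Subgroup 3 took 0.711% and 1.01% in EACBE+/+ and 0.760% and 0.694% in EACBE-/-. Subgroup 4, the largest, took 1.28% and 1.79% in EACBE+/+ and 1.52% and 1.68% in EACBE-/-. The groups of subgroups 3 and 4 overlapped, and their differences were smaller than the spread between the EACBE+/+ libraries. By copy type, the originals took 1.39% and 1.10% in EACBE+/+ and 1.19% and 1.06% in EACBE-/-, the D copies 0.430% and 1.61% against 0.341% and 0.983%, and the N copies 0.973% and 1.08% against 1.04% and 0.774%. All 3 copy types overlapped between the genotypes.

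In edgeR's quasi-likelihood test of the use of single V segments, 0 of the 7 members passed an adjusted p of 0.05 (Benjamini-Hochberg over 105 segments). In the same fit 5.71% of all segments were called lower and 0% higher. At an unadjusted p under 0.05 the count was also 0, and DESeq2 called 0. The members' adjusted p in edgeR ran from 0.386 (Trav9-2, log2 change -1.32, SE 0.684) to 0.960 (Trav9d-4, log2 change -0.17, SE 1.29). Their median log2 change was -0.19, beside -0.12 over all segments tested. The groups did not overlap for 1 member that was lower (Trav9d-3) and 1 that was higher (Trav9-4), where 23.8% of all segments were lower without overlap and 25.7% higher. Of the 14 annotated Trav genes adjacent to a member, 10 were tested and 0 passed.

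With copies summed, 46 segments were tested, of which 19.6% were called lower and 6.52% higher. Subgroup 2 fell by 1.26 in log2 terms (SE 0.301; edgeR adjusted p = 0.0412). Subgroup 3 had a log2 change of -0.27 (adjusted p = 0.419) and subgroup 4 one of 0.05 (adjusted p = 0.890) in edgeR. DESeq2 also called subgroup 2, at an adjusted p of 0.0237. The call ended with TMM scaling (adjusted p = 0.0558 in edgeR, log2 change -1.11), which moved the median log2 change of all 46 segments from -0.14 to 0.01. It also ended without EACBE+/+ replicate 2 (adjusted p = 0.129), EACBE-/- replicate 1 (0.211) or EACBE-/- replicate 2 (0.119) in edgeR. The libraries of subgroup 2 did not overlap, as was the case in the lower direction for 37% of the 46 segments.

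Which Traj segments the family joined was described by the 43 listed Traj segments, split into a 5′ list of 13 (Traj58 to Traj42, nearest the V array), a middle list of 16 (Traj40 to Traj22) and a 3′ list of 14 (Traj21 to Traj2). A share of joins is the percent of a segment's own counts, so for a single segment it does not depend on how much that segment was used. For summed copies it also depends on the mix of copies, which differed between libraries. Trav9d-2, for example, gave 17 of 46 D-copy joins in EACBE+/+ replicate 1 and 1334 of 2771 in EACBE+/+ replicate 2. The family as a whole joined the 3′ list in 30.4% and 35.2% of counts in EACBE+/+ replicates 1 and 2 and in 18.7% and 22.1% in EACBE-/-, which is 12.5 points lower between the means. The other V segments together joined it in 23.8% and 29.95% against 14.5% and 17.0%, which is 11.1 points lower. The family thus joined the 3′ list more often than the sum of the other segments in each library, by 6.65 and 5.30 points in EACBE+/+ and by 4.21 and 5.08 points in EACBE-/-. That gap did not overlap between genotypes, with an exact permutation p of 0.333, the smallest that 2 libraries against 2 allow. The sum is weighted to heavily used segments. The median 3′ share over the 105 single segments was 30% and 38.7% in EACBE+/+ and 15.9% and 20.7% in EACBE-/-. The family lay below that median in EACBE+/+ replicate 2 and above it in the other libraries.

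Inside the family the 3′ share differed between copy types. In EACBE+/+ replicates 1 and 2, the originals joined the 3′ list in 15.4% and 15.9% of counts, the D copies in 39.1% and 38.8% and the N copies in 48.1% and 49.6%. In EACBE-/- the values were 8.33% and 12.1% for the originals, 27.7% and 27.2% for the D copies and 27.6% and 29.2% for the N copies. The copies farther from the J array thus joined 3′ Traj segments more often than the originals in all 4 libraries. The N copies exceeded the originals by 32.6 and 33.7 points in EACBE+/+ and by 19.3 and 17.1 points in EACBE-/-, with no overlap. The D copies exceeded the originals by 23.7 and 22.9 points and by 19.4 and 15.1 points. The gap between N and D copies was 8.95 and 10.8 points in EACBE+/+ and -0.05 and 2.05 points in EACBE-/-. This last gap compares different subgroups, since Trav9d-2, with 3′ shares of 29.4% and 30.8% in EACBE+/+ and 14.3% and 19.1% in EACBE-/-, has no N copy here. Matched by subgroup in EACBE+/+ replicate 2, the 3′ share was 51.3% for Trav9n-3 beside 50.8% for Trav9d-3, and 46.5% for Trav9n-4 beside 43.5% for Trav9d-4. Within subgroup 2, the original Trav9-2 joined the 3′ list in 21.7% and 22.2% of counts in EACBE+/+ and in 9.52% and 18.6% in EACBE-/-, below Trav9d-2 in each library. The differences of the 3 gaps between genotypes each had the smallest possible two-sided exact permutation p, 0.333, and no p below it could be reached.

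**Figure D3:**
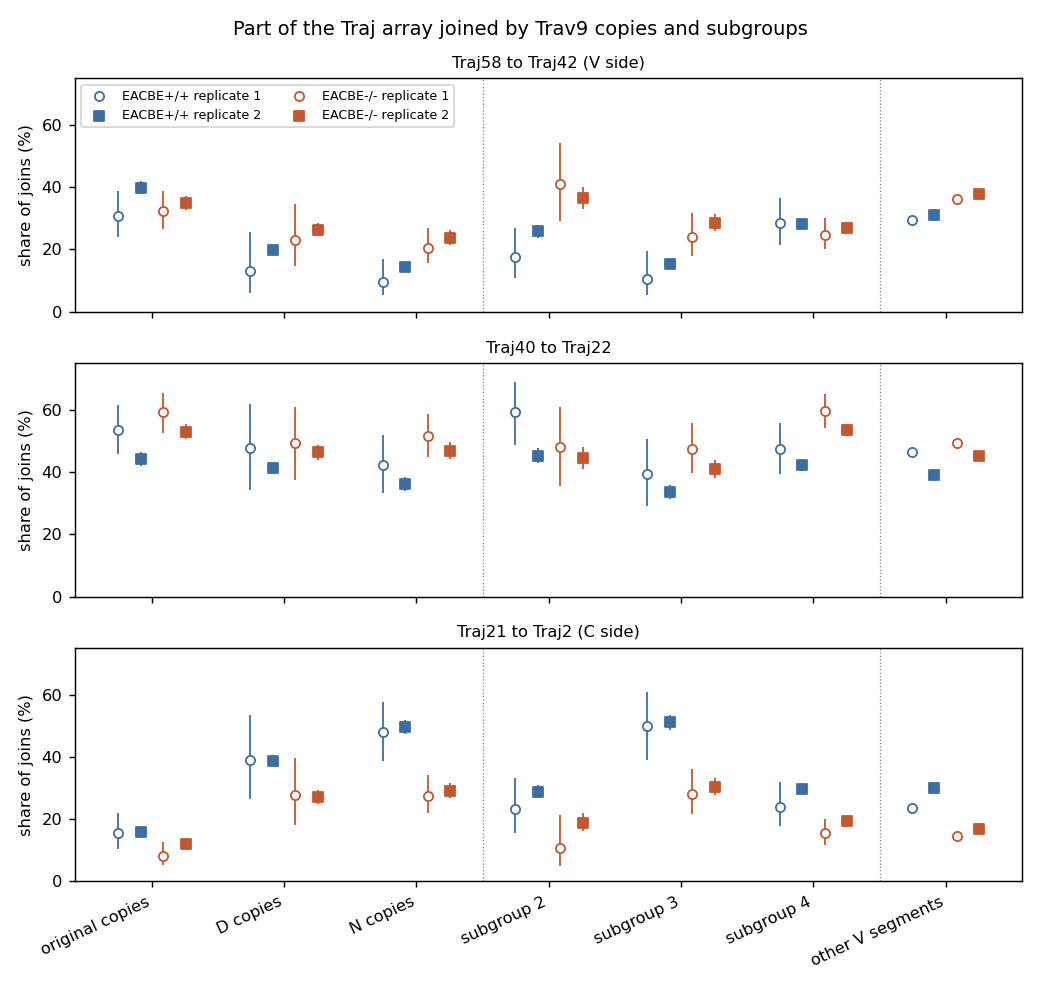
Share of joins (percent of the segment's own counts) that used the 5′ (top), middle and 3′ (bottom) Traj lists, for copy types, subgroups and all other V segments; points are libraries with 95% Wilson intervals, blue for EACBE+/+ and orange for EACBE-/-. In the bottom panel the N copies drop from 48.1% and 49.6% to 27.6% and 29.2%, and in the top panel subgroup 4 alone of the 3 subgroups is not higher in EACBE-/-.

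Subgroup 3 was the subgroup richest in 3′ joins, and it has no original among its measured copies. It joined the 3′ list in 50.0% and 51.2% of counts in EACBE+/+ and in 28.3% and 30.4% in EACBE-/-. Subgroup 2 did so in 23.3% and 28.9% against 10.7% and 18.9%, and subgroup 4 in 24.1% and 29.8% against 15.5% and 19.4%. In all 3 subgroups both EACBE-/- libraries lay below both EACBE+/+ libraries, as in 82.6% of the 46 segments with copies summed. Of the single copies, Trav9n-3 joined the 3′ list in 55.1% and 51.3% of counts in EACBE+/+ and in 26.9% and 28.2% in EACBE-/-. Trav9n-4 joined the 3′ list in 41.8% and 46.5% against 28.4% and 30.9%, and Trav9d-3 in 40.7% and 50.8% against 31.7% and 35.2%. Both were above Trav9n-3 in EACBE-/- and below it in EACBE+/+. Trav9-4, the most used and most proximal member, had the lowest 3′ share in EACBE+/+, with 10.0% and 14.4%, and 8.06% and 11.3% in EACBE-/-, and it was the 1 member whose groups overlapped. In the other 6 members both EACBE-/- values were lower, where 67.6% of the 105 segments behaved so, and 0 members were higher without overlap, beside 1.9% of all segments.

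The odds of a 3′ join, tested apart from the use of the segment, were lower in EACBE-/- by sign in 7 of 7 members, and 1 member passed, where 36.2% of all 105 segments were called lower. That member was Trav9n-3, with a log2 change in the odds of -1.53 (SE 0.433, edgeR adjusted p = 0.00480). At an unadjusted p under 0.05 there were 5 members, all but Trav9-2 and Trav9-4. The share of all segments at that cut is not given. The members' median log2 change in odds was -0.94, beside -0.95 over all segments. The call of Trav9n-3 ended whichever library was left out, with adjusted p in edgeR of 0.0503 without EACBE+/+ replicate 1, 0.306 without EACBE+/+ replicate 2, 0.0979 without EACBE-/- replicate 1 and 0.0900 without EACBE-/- replicate 2, and log2 changes from -1.67 to -1.46.

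With copies summed, all 3 subgroups passed for the 3′ list, as did 76.1% of the 46 segments. Subgroup 3 fell by 1.30 in log2 terms (SE 0.274; edgeR adjusted p = 0.000181), subgroup 2 fell by 0.86 (adjusted p = 0.00843) and subgroup 4 fell by 0.83 (adjusted p = 0.0342). Without EACBE+/+ replicate 2 none of the 3 passed, at adjusted p of 0.213, 0.479 and 0.542 in edgeR. Without EACBE-/- replicate 1 subgroup 3 alone passed, and without EACBE-/- replicate 2 subgroups 2 and 3 passed.

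For the 5′ list the change between the genotypes differed by subgroup and by copy type. Subgroup 2 joined it in 17.4% and 25.8% of counts in EACBE+/+ and in 41.1% and 36.5% in EACBE-/-. Subgroup 3 did so in 10.53% and 15.3% against 24.1% and 28.6%. Subgroup 4 ran the other way, with 28.5% and 28.1% in EACBE+/+ and 24.7% and 26.97% in EACBE-/-. The other V segments took 29.6% and 30.9% against 36.2% and 38.0%. Subgroups 2 and 3 were thus higher in both EACBE-/- libraries, as were 52.2% of the 46 segments, and subgroup 4 was lower in both, as were 10.9%. By copy type, the D copies went from 13.0% and 19.8% in EACBE+/+ to 23.1% and 26.4% in EACBE-/-. The N copies went from 9.62% and 14.3% to 20.6% and 23.8%. The originals overlapped, at 30.9% and 39.9% in EACBE+/+ and 32.5% and 34.9% in EACBE-/-.

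In the fit of the odds of a 5′ join with copies summed, which called 37% of segments higher and 4.35% lower, subgroup 3 rose by 1.133 in log2 terms (SE 0.191; edgeR adjusted p = 8.45e-07). Subgroup 2 rose by 0.83 (SE 0.202, adjusted p = 0.000395 in edgeR). Both calls ended without EACBE-/- replicate 2 (adjusted p = 0.0611 and 0.0823 in edgeR). Subgroup 4 had a log2 change of -0.13 (SE 0.169, adjusted p = 0.543 in edgeR). The difference between subgroups 2 and 4 in the 5′ share was -11.0 and -2.23 points in EACBE+/+ and 16.3 and 9.54 points in EACBE-/-, so that their order was opposite in the 2 genotypes in every library. Between subgroups 3 and 4 it was -17.9 and -12.8 points against -0.60 and 1.59 points. Both differences had an exact permutation p of 0.333, the smallest possible.

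Among the single copies of subgroup 4, Trav9n-4 had a higher 5′ share in EACBE-/-, at 14.7% and 13.9% against 10.9% and 12.0% in EACBE+/+. Trav9d-4 overlapped, and Trav9-4 was the one with a lower 5′ share in EACBE-/-. It was 41.2% and 42.4% in EACBE+/+ and 30.6% and 35.6% in EACBE-/-, lower in both, and 7.62% of the 105 segments were lower without overlap. Its log2 change in the odds was -0.51 (SE 0.278, adjusted p = 0.204 in edgeR), which did not pass. In contrast, Trav9n-3 went from 8.16% and 15.5% to 25.96% and 30%, and its odds rose by 1.27 in log2 terms (SE 0.352; edgeR adjusted p = 0.00591), the 1 member called, where 10.5% of segments were called higher and 0.952% lower. That call held without EACBE-/- replicate 1 and ended without any of the other 3 libraries. Trav9d-2 took 11.8% (2 of 17 counts) and 24.7% in EACBE+/+ and 42.9% (6 of 14 counts) and 39.3% in EACBE-/-. Its odds did not pass (log2 change 1.11, adjusted p = 0.0667 in edgeR). In all, 4 members were higher without overlap, where 45.7% of all segments were. The members' median log2 change was 0.45, beside 0.41 over all segments.

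**Figure D4:**
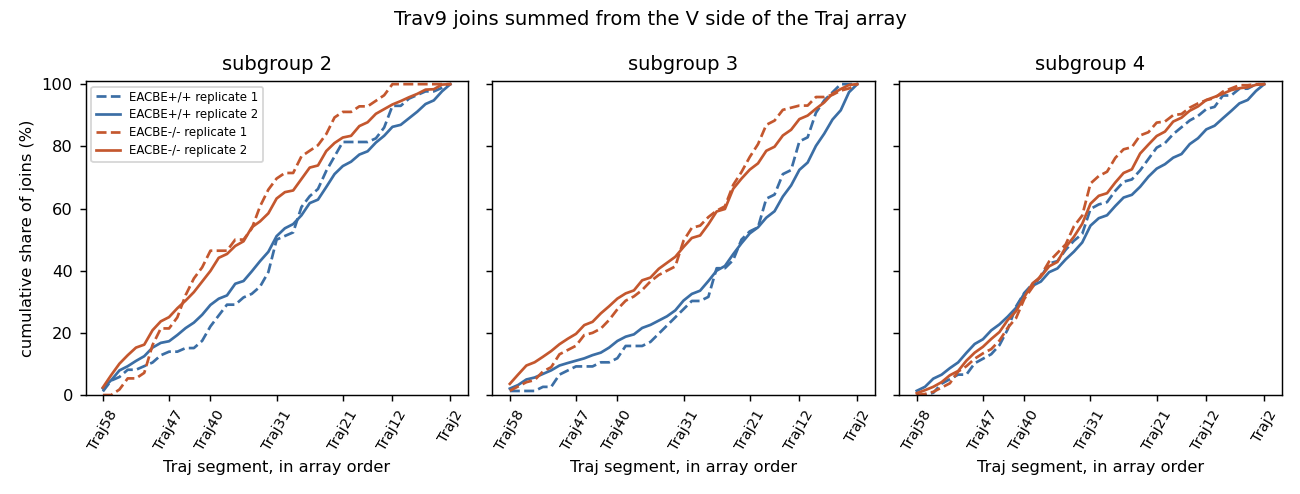
Cumulative share of joins (percent), summed over the 43 Traj segments in array order from the V side, for the 3 subgroups with copies summed; blue lines are EACBE+/+, orange lines EACBE-/-, dashed replicate 1 and solid replicate 2. For subgroups 2 and 3 the EACBE-/- lines run above the EACBE+/+ lines over most of the array, while for subgroup 4 both EACBE-/- lines lie below both EACBE+/+ lines at Traj42, the end of the 5′ list, and above them from Traj34 to Traj5.

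The middle list, whose fit was added after the data were seen, was the one that subgroup 4 joined more often in EACBE-/-. It did so in 47.4% and 42.2% of counts in EACBE+/+ and in 59.8% and 53.6% in EACBE-/-, with no overlap. Subgroup 3 did so in 39.5% and 33.6% against 47.6% and 41.04%, and subgroup 2 in 59.3% and 45.3% against 48.2% and 44.6%, which overlapped. Of the 46 segments, 43.5% were higher without overlap. With copies summed 0 of the 3 subgroups passed in edgeR, and 2.17% of segments were called higher. At an unadjusted p under 0.05 there was 1 subgroup, and the share of all segments at that cut is not given. Among single copies, Trav9n-4 rose by 0.76 in log2 terms (SE 0.285; edgeR adjusted p = 0.0421), from 47.3% and 41.4% to 56.8% and 55.2%, where 21.9% of segments were called higher. Without overlap, 4 members were higher and 1 lower, where 50.5% of the 105 segments were higher and 5.71% lower. The call of Trav9n-4 ended without EACBE+/+ replicate 2 or either EACBE-/- library. The number of members past the threshold also moved without EACBE+/+ replicate 1, the library with 2 counts of Trav9d-4. The share of all segments called in that fit is not given.

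**Figure D5:**
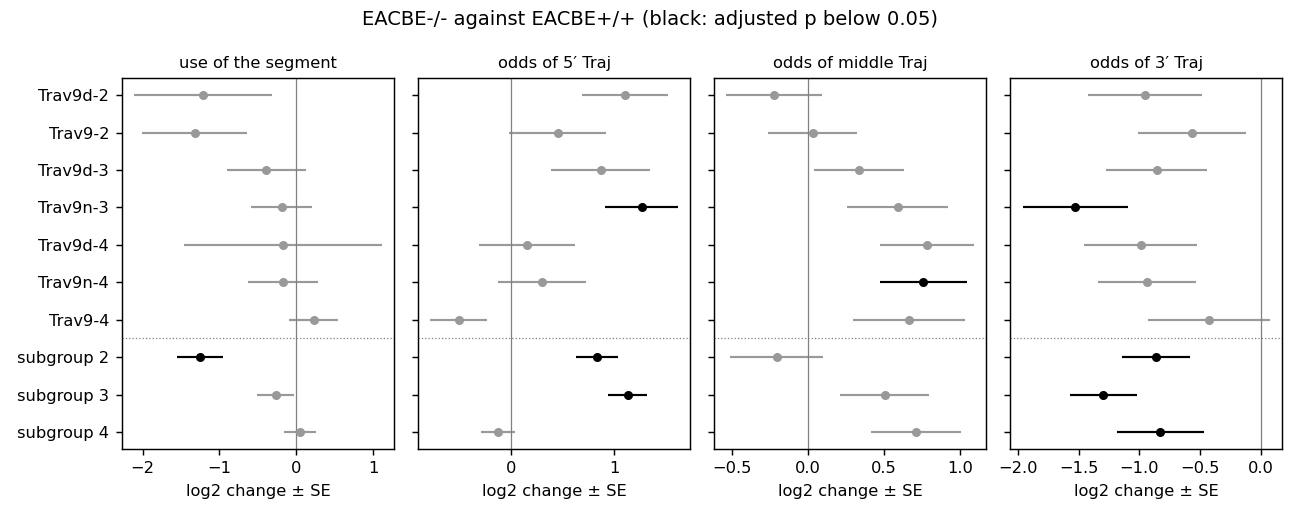
Log2 change in EACBE-/- against EACBE+/+, with its standard error, for the use of each segment and for the odds of joining the 5′, middle and 3′ Traj lists, from edgeR fits over 105 single segments (above the dotted line) or 46 segments with copies summed (below it). Black marks an adjusted p below 0.05; all 3′ estimates lie below 0, and the 5′ estimates of subgroups 2 and 3 (0.83 and 1.133) stand apart from that of subgroup 4 (-0.13).

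At the level of single Traj segments, Traj31 was the most used partner of the family, with 7.36% and 4.72% of joins in EACBE+/+ and 8.94% and 5.39% in EACBE-/-. It was higher in replicate 1 of both genotypes, and the genotypes overlapped. By the mean of the 4 libraries Traj31 led for Trav9-2 (6.93%), Trav9-4 (6.75%) and Trav9n-4 (8.76%). Other partners led elsewhere: Traj17 for Trav9d-3 (7.22%), Traj12 for Trav9n-3 (5.44%) and Traj40 for Trav9d-2 (7.84%). These means weight the libraries equally, and for the D copies they rest on few counts in replicate 1. For Trav9d-2, Traj40 had 2 of 17 and 2 of 14 counts in replicate 1 of EACBE+/+ and EACBE-/-, and in replicate 2 it had 36 and 14 counts where Traj31 had 66 and 26. For Trav9d-3, Traj17 had 5 of 27 counts in EACBE+/+ replicate 1 and 3.15% of joins in EACBE+/+ replicate 2. For Trav9d-4 the leading mean, 14.7% for Traj15, rests on 1 of its 2 counts in EACBE+/+ replicate 1. Traj31 was followed by Traj23 and Traj49 for Trav9-2, by Traj40 and Traj42 for Trav9-4 and by Traj21 and Traj22 for Trav9n-4. Traj12, the leader for Trav9n-3, took 12.2% and 5.09% of its joins in EACBE+/+ and 0.962% and 3.46% in EACBE-/-, with no overlap. Traj23 and Traj9 followed it. For Trav9d-2 the next were Traj21 and Traj43, for Trav9d-3 Traj22 and Traj26, and for Trav9d-4 Traj17 and Traj38.

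In subgroup 2, 7 of the 13 5′ Traj segments took a higher share of joins in EACBE-/- without overlap and 5 of the 14 3′ segments a lower one. In subgroup 3 the counts were 9 and 6, and in subgroup 4 they were 1 and 6. The opposite was seen for 1 of the 3′ segments in subgroup 3 and 1 of the 5′ segments in subgroup 4. Some of these differences rest on 0 counts in replicate 1. In subgroup 3, the higher Traj57, Traj53, Traj50, Traj45 and Traj42 each had 0 of 76 counts in EACBE+/+ replicate 1. In subgroup 2, the lower Traj9, Traj7 and Traj2 each had 0 of 56 counts in EACBE-/- replicate 1. Over the joins of the other V segments, 41.9% of the 43 Traj segments were higher without overlap and 27.9% lower, namely 10 of 13 5′ segments higher and 12 of 14 3′ segments lower. In the middle list 6 of 16 segments were higher without overlap in subgroup 4, 4 in subgroup 3 and 1 in subgroup 2.

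Of the members' single V-J pairs, 103 had enough counts to be tested, and 0 passed in edgeR, where 2.94% of all 2416 pairs were called lower and 0.331% higher. At an unadjusted p under 0.05 there were 7 of the 103, a cut at which no share over all pairs is given. DESeq2 called 0. The lowest p belonged to Trav9n-3 with Traj9, which had 6 and 64 counts in EACBE+/+ and 1 and 17 in EACBE-/- (log2 change -2.20, adjusted p = 0.101 in edgeR). Next were Trav9n-3 with Traj7, at 2 and 52 counts against 0 and 13, and Trav9d-2 with Traj12, at 2 and 39 against 0 and 10. All 3 use 3′ Traj segments. Few pairs of the D copies were seen in replicate 1: Trav9d-2 had a count with 13 and 11 of the 43 Traj segments in EACBE+/+ and EACBE-/-, and Trav9d-4 with 2 and 9, against 43 of 43 for both in replicate 2 of each genotype.

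With copies summed, 11 of 99 subgroup pairs passed in edgeR and all 11 were lower in EACBE-/-, where 14.4% of all 1459 pairs were called lower and 3.98% higher. Of the 11, 9 used a 3′ and 2 a middle Traj segment, and 6 belonged to subgroup 2, 3 to subgroup 3 and 2 to subgroup 4. Subgroup 2 with Traj12 had 6 and 49 counts in EACBE+/+ and 2 and 11 in EACBE-/-, and fell by 2.15 in log2 terms (SE 0.591; edgeR adjusted p = 0.00955). Subgroup 2 also fell with Traj9 (2 and 36 against 0 and 9 counts, log2 change -2.07), Traj21 (4 and 44 against 1 and 13, log2 change -1.83) and Traj13 (3 and 37 against 1 and 11, log2 change -1.75). Subgroup 4 fell with Traj4, the segment next to the last listed, from 2 and 89 to 1 and 22 counts (log2 change -1.90, SE 0.548, adjusted p = 0.0133 in edgeR), and with Traj6 from 3 and 76 to 3 and 17 (log2 change -1.85). The fall of a subgroup 2 pair is not separate from that of the subgroup itself, and the median log2 change over its 29 tested pairs was -1.07, beside -0.13 for the 30 of subgroup 3, 0.03 for the 40 of subgroup 4 and -0.02 over all pairs. DESeq2 called 0 of the 99. The calls ended without replicate 2 of either genotype, and their number moved without EACBE+/+ replicate 1. The share of all pairs called in those fits is not given.

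The likeness of J partners between members was described in the deepest library of each genotype. Over the 43 Traj segments of EACBE+/+ replicate 2, the shares of joins of Trav9d-3 and Trav9n-3 had a Pearson r of 0.849, and those of Trav9n-3 and Trav9-4 one of -0.40. In EACBE-/- replicate 2 the values were 0.689 and 0.292. Trav9d-4 had an r of -0.08 with the original Trav9-4 in EACBE+/+ and of 0.578 in EACBE-/-, while that of Trav9d-4 with Trav9n-4 was 0.762 and 0.833. These points share a library and their order along the array, and the values are given as a description. Among the 92 other V segments with at least 500 counts, those whose mean J profile over the 4 libraries was most like that of the summed family were Trav7d-4 (r = 0.932), Trav6d-7 (0.916) and Trav14n-3 (0.908), again over 43 Traj segments. Trav7d-4 joined the 3′ list in 33.7% and 39.5% of counts in EACBE+/+ and 15.6% and 21.4% in EACBE-/-.

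The delta locus (Trd), which lies between the V and J arrays of Tcra and can also be joined by Trav segments, held few Trav9 counts. The members had 0 of 1744 counts in EACBE+/+ replicate 1 and 0 of 5615 in EACBE-/- replicate 1, where no member row was listed. In replicate 2 they had 5 of 28093 counts (0.0178%) in EACBE+/+ and 18 of 47158 (0.0382%) in EACBE-/-, of which 12 were Trav9d-2, and all 23 were joined to Trdj1. With 1 library per genotype holding any count, no comparison of the genotypes was made.

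The Hi-C boundary lists, 1 library per genotype with no replicate, had 0 boundaries in the 784 kb from Trav9d-2 to Trav9-4 in either genotype. Upstream of the D copies both lists had the bin chr14:52620001-52640000. On the J side, the nearest boundary of EACBE+/+ was the bin chr14:53680001-53700000, 3.37 kb past Trav9-4, and that of EACBE-/- the next bin, chr14:53700001-53720000, 23.4 kb past it. Bins were 20000 bases wide, so this nearest boundary differed by 1 bin, the resolution of the data. Farther on the J side, EACBE+/+ also listed the bins chr14:53800001-53820000 and chr14:53840001-53860000, which EACBE-/- did not. The original Trav9-4 was thus the member closest to a boundary in both lists, and Trav9n-3, at 448 and 468 kb, the farthest from one.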

How the data were processed

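Receptor RNA was amplified by template-switching 5′ RACE, per the labels' protocols, and the authors deposited each as a table of whole-number counts, V segments by J segments. Which tool assigned segments is not stated in these sources. The deposited Hi-C lists give boundary bins with a score each, on mm10 per the file headers, and only their positions were used.

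The 7 Trav9 rows were read from the 4 Tcra tables. The members and lists were chosen with earlier results of these data known. Counts were fitted with edgeR 4.0.16 (R 4.3.3; glmQLFit, glmQLFTest, library sizes set to the table totals without TMM factors, filterByExpr with minimum count 10 and total 15) over the 105 V segments listed in all 4 tables, and p-values were adjusted by Benjamini-Hochberg over each whole fit, with a threshold of 0.05. Odds of a Traj list were fitted on 2 columns per library (in the list and not), with a term per library. Single shares were compared by exact permutation. The fits were run on simulated counts with a small, fixed spread between libraries and no effect of the replicate number. That simulation does not show how the fits behave at the spread seen here. Alternatives tried were DESeq2 1.42.0, TMM factors, no filter, other totals, copies summed, each pair counted once, a split at Traj32, each library left out and the replicate number as a block. Named were all members, their 3 leading Traj partners, up to 6 pairs past the threshold with the largest change (or the 3 of lowest p) and the 3 V segments of most similar J profile. Of the 40 samples, 30 were not analysed here. Segments were matched by symbol to RefSeq.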

Additional observations from a re-analysis of the deposited data

How the results depend on the processing

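The replicate numbers are not tied to shared animals or batches by the labels, and with 2 pairs the fit with a replicate block is given as an alternative only. Same-numbered libraries deviated together (r = 0.878 over 105 segments). With the block, the members past the threshold were 2 for V use (Trav9-2 and Trav9d-2), 5 for the 3′, 4 for the middle and 3 for the 5′ odds, and 12 V-J pairs. For the subgroup sums the block gave 2 for V use, 2 for the middle odds and 31 pairs, and turned the log2 change of subgroup 4 to -0.0214. The shares of all segments and pairs called are not given for the fits with the block, without the filter or split at Traj32. The counts of those fits therefore cannot be set against a rate over all segments. With copies summed, 1 subgroup passed for V use, 3 for the 3′, 0 for the middle and 2 for the 5′ odds, and 11 pairs. Without the filter 1 member pair passed, and with the array split at Traj32, 2 members passed for the 3′ part, the log2 change of Trav9-4 was 0.17 and the 5′ part of the family differed by 11.5 points. For the sums, TMM scaling left 0 calls of V use and DESeq2 left 0 pairs. Counting every V-J pair once, which depends on depth since replicate 2 held nearly all pairs, the EACBE-/- value minus the EACBE+/+ value was 0.443 points for the family's share, 0.336 for the N copies, -4.11 for its 3′ and -0.521 for its middle share.

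Leaving out 1 library at a time gave 0 to 3 member pairs, 0 members for the 3′ odds, 0 to 1 for the 5′ and 0 to 4 for the middle odds. For the sums it gave 0 to 21 pairs, 0 to 1 calls of V use, 0 to 3 for the 3′, 0 to 2 for the 5′ and 0 to 1 for the middle odds. Log2 changes of V use then ran from -2.70 to 0.36 for Trav9d-2, -2.43 to 3.73 for Trav9d-4, -0.45 to 0.15 for Trav9n-3, -0.58 to 0.16 for Trav9n-4, -0.48 to 0.0285 for subgroup 3 and -0.16 to 0.32 for subgroup 4. Those of the odds ran from -0.45 to 0.21 (Trav9-2, middle), -0.75 to 0.0263 (Trav9-4, 3′), -0.21 to 0.76 (Trav9d-3, middle) and -0.66 to 4.32 (Trav9d-4, 5′). Why calls were lost was not tested, beyond the fewer libraries each such fit had, in which a lone library is assumed to vary like the others. DESeq2, TMM scaling, totals over segments listed in all 4 tables and segments of 1 replicate kept each left 0 members past the threshold for V use, and TMM left 10 pairs of the sums.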

Other observations

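Subgroup 1 of the family, which the naming rule left out, is given for comparison, as values chosen after they were seen. Trav9-1 took 0.206% and 0.408% of Tcra counts in EACBE+/+ replicates 1 and 2 and 0.262% and 0.656% in EACBE-/-. Trav9d-1 took 0.0655% and 0.0464% against 0.257% and 0.112%. Summed, subgroup 1 took 0.271% and 0.455% in EACBE+/+ and 0.519% and 0.769% in EACBE-/-. It was higher in both EACBE-/- libraries, as were 28.3% of the 46 segments with copies summed. Between the means it was 1.77-fold higher, while subgroup 2 was 2.42-fold lower. Subgroup 1 joined 3′ Traj segments in 34.5% and 30.6% of counts in EACBE+/+ and in 15.2% and 22.1% in EACBE-/-. The difference between subgroups 1 and 2 was not tested.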
